A study of Mus musculus with 113 samples.

Results

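Single knockdown (KD) of *Nr2c2* at the 8-cell (8C) stage was described with 4 RNA-seq libraries of mouse embryos, taken by their titles from 113 samples of the series, 92 of which had FPKM values here. In 2 of these libraries the embryos had received *Nr2c2* siRNA as zygotes, and in the other 2 a negative control (NC) siRNA, each labelled as injected at 5 μM. The study's methods give another, higher concentration for NC siRNA, and if that holds for these libraries the dose cannot be told apart from the KD. All embryos were labelled wild type, and by the methods they came from C57BL/6N females mated with PWK/PhJ males. Several embryos were pooled in each Smart-seq2 library, a protocol that makes full-length cDNA from very little RNA. For comparison, 6 libraries of embryos injected with *Nr5a2*, *Rarg* or *Nr1h3* siRNA in the same experiment (2 for each gene) were set beside these 4. Libraries of 2 further 8C experiments were also used: triple KD, in which 3 of these 4 receptors were targeted in each group, and 4KD, in which all 4 were targeted. Their KD libraries were also labelled 5 μM, but the NC libraries of both experiments were labelled with higher concentrations. If these labels hold, the dose cannot be told apart from the KD where these libraries are compared with their own NC. The *Nr2c2* siRNA was a mixture of siRNAs, and its action on other transcripts cannot be told apart from the loss of *Nr2c2* in any of these experiments. The labels do not say whether the replicates came from separate collections of embryos, so the p-values measure only the spread between these samples, which may be technical.

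NR2C2, also known as TR4, is an orphan receptor of the nuclear receptor superfamily. Alone or together with its paralog NR2C1 it binds paired copies of the hexamer AGGTCA or near versions of it, and it recruits corepressors or coactivators depending on the gene. It is known for silencing embryonic globin genes in red cells, for the control of lipid and glucose genes in liver, and for roles in sperm and germ cells. The 8C stage follows zygotic genome activation and comes just before the first cells of the embryo choose between inner cell mass and trophectoderm. The comparison asks which genes need *Nr2c2* at this stage, when the 3 other receptors are not targeted.

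The KD acted on its target in both libraries. *Nr2c2* (chr6:92041384-92123051, plus strand, mm9) was at 7.81 and 12.2 FPKM in the NC libraries and at 0.809 and 0.592 FPKM in the *Nr2c2* KD libraries. FPKM give the reads of a gene per length of transcript and per mapped reads of its library. In the 6 libraries of the other single KD groups it lay between 7.63 and 10.0 FPKM, so the groups did not overlap. The mean of the KD libraries was 7.01% of the NC mean. On the log2(FPKM + 1) scale, on which all fold changes here are given, the fall was −2.67 ± 0.385 (SE, n = 2 against 2), with an adjusted p of 0.0284 by limma with Benjamini-Hochberg adjustment. *Nr2c2* transcript levels were highest early: 2 NC pools of 2-cell embryos had 19.2 and 28.4 FPKM, 2 of 4-cell embryos had 14.5 and 15.0, and 6 NC pools of 8C embryos lay between 2.98 and 12.2. These pools come from libraries that were each scaled on their own.

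The remaining targeted receptors were below their NC values. *Nr5a2*, a receptor needed for lineage genes at this stage, was at 50.3 and 48.8 FPKM in NC and at 44.2 and 30.7 in *Nr2c2* KD. *Rarg*, a retinoic acid receptor, went from 28.0 and 33.0 to 18.9 and 19.1 FPKM, and *Nr1h3*, the oxysterol receptor LXRα, from 9.32 and 11.99 to 7.03 and 4.18. All 3 were lower in both KD libraries, and none passed limma at an unadjusted p of 0.05 (0.262, 0.121 and 0.109). The paralog *Nr2c1*, which can bind the same sites as NR2C2, was barely expressed: 0.970 and 0.754 FPKM in NC against 0.944 and 1.03 in KD, under the limit of 1 FPKM for testing. A difference in *Nr2c1* was not detectable at such levels.

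Of 9169 genes tested, 8 differed between *Nr2c2* KD and NC at an adjusted p under 0.05 (0.0873% of the genes, limma with Benjamini-Hochberg adjustment), and all 8 were lower in KD. They were *Nr2c2* itself, *Ndufs6*, *Slirp*, *Parl*, *Sdr39u1*, *Ccdc84*, *Morn2* and *Scarna6*. With an adjusted p under 0.01 and a change of 2 log2 units or more, the count was 1, *Scarna6*. At an unadjusted p under 0.05, 352 genes were lower (3.84%) and 67 higher (0.731%). This lean to lower values depended on the scaling: the median log2 fold change of all genes tested was −0.27, and with median-ratio size factors, which brought it to −0.007, the lower genes were 196 and the higher 174, or 52.97% lower in place of 84.0%. With quantile normalization the split was 222 and 182. The calls depended on it too: with median-ratio size factors only *Scarna6* and *Sdr39u1* passed (adjusted p = 0.0173 for both), while *Parl* was at 0.0534, *Nr2c2*, *Ccdc84* and *Morn2* at 0.117, *Ndufs6* at 0.166 and *Slirp* at 0.257 (limma with Benjamini-Hochberg adjustment). The 10 most abundant genes took 13.4% and 14.9% of the summed FPKM in NC and up to 21.0% in KD, and their part in the shift was not tested.

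Most calls were lost when 1 library was left out, which leaves its group with a lone library. The log2 fold change of *Nr2c2* stayed between −2.38 and −2.96 in these fits, and in all 8 genes both KD libraries were below both NC libraries. Without NC replicate 1 the only call was *Scarna6*, and without NC replicate 2 the 3 calls were *Scarna6*, *Ndufs5* and *Tnp1*. Without *Nr2c2* KD replicate 2 there were 9 calls, of which 6 were higher (*Defa4*, *Tcstv3*, *Gm2016*, *Gm21312*, *Gm20765* and *Gm4541*) and 3 lower (*Ndufs6*, *Scarna6* and *Amd1*), so that 2 of the 8 genes were among them. Without *Nr2c2* KD replicate 1 the count was 0 by limma, with 256 genes lower and 92 higher at an unadjusted p under 0.05. An exact permutation test of 2 against 2 libraries cannot give a two-sided p below 0.333.

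**Figure D1:**
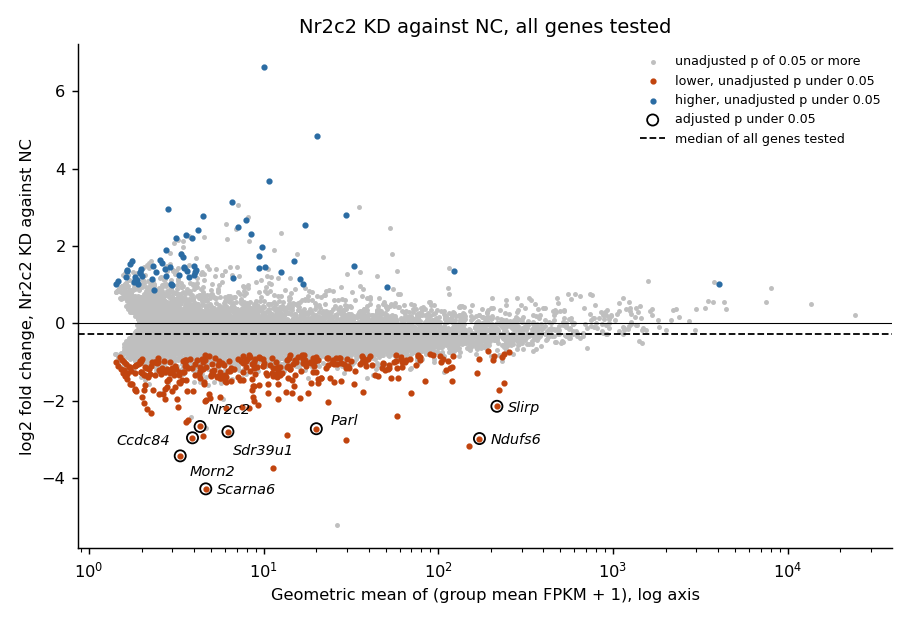
The log2 fold change of *Nr2c2* KD against NC (vertical axis, log2(FPKM + 1) scale) is plotted for the 9169 genes tested against the geometric mean of the group means plus 1 (horizontal axis, FPKM, log scale), 1 point a gene. The 352 lower and 67 higher genes at an unadjusted p under 0.05 are coloured, the 8 genes at an adjusted p under 0.05 are circled, and the dashed line marks the median of −0.27.

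The largest of these falls by abundance was in *Ndufs6*, an accessory subunit of respiratory complex I (chr13:73457286-73465990, minus strand). It was at 498 and 412 FPKM in NC and at 34.1 and 93.6 in *Nr2c2* KD, while the other single KD groups lay between 306 and 444. The KD libraries were thus far under every other library of the experiment, with a mean 7.13-fold below that of NC (log2 fold change −2.98 ± 0.424, adjusted p = 0.0284 by limma with Benjamini-Hochberg adjustment). *Ndufs6* levels climbed over these stages in control embryos: NC pools had 15.6 and 29.9 FPKM at the 2-cell stage, 137 and 268 at the 4-cell stage, and 238 to 501 at 8C. In 16 single control embryos at 8C it ranged from 63.1 to 563 FPKM with a median of 323. The *Nr2c2* KD pools thus held levels between those of the 2-cell and the 4-cell NC pools.

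*Slirp*, which encodes a protein that holds mitochondrial mRNAs together with LRPPRC, differed in the same way. It was at 474 and 434 FPKM in NC and at 97.8 and 106 in KD, with 262 to 503 in the 6 libraries of the other KD groups (log2 fold change −2.14 ± 0.306, adjusted p = 0.0284, limma with Benjamini-Hochberg adjustment). The KD libraries were close to each other and below all the rest. *Parl* encodes the rhomboid protease of the inner mitochondrial membrane that cuts PINK1. Its 64.9 and 37.3 FPKM in NC compared with 5.60 and 7.77 in KD (log2 fold change −2.72 ± 0.414, adjusted p = 0.0319, same test). Here the other groups were not at the NC level: *Nr5a2* KD had 28.5 and 16.3 FPKM and *Rarg* KD 23.4 and 25.7, with *Nr1h3* KD at 54.1 and 47.8.

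*Sdr39u1*, a short-chain dehydrogenase/reductase family member, was at 15.9 and 15.1 FPKM in NC and at 1.30 and 1.43 in *Nr2c2* KD, an 11.3-fold difference of the means (adjusted p = 0.0284, limma with Benjamini-Hochberg adjustment). *Nr5a2* KD went the other way, with 53.4 and 33.0 FPKM. *Ccdc84*, which encodes a splicing-associated coiled-coil protein, was at 13.6 and 6.76 FPKM in NC and 0.350 and 0.386 in KD, and the other KD groups were at 3.05 to 7.18. *Morn2*, which encodes a MORN-repeat protein, was at 7.44 and 12.7 FPKM in NC and was listed at 0 in both KD libraries. Its other KD groups ran from 2.67 to 12.7. Both had an adjusted p of 0.0284 (limma, Benjamini-Hochberg), and in all of these genes the KD libraries did not overlap any other library of the experiment.

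*Scarna6*, a small Cajal body RNA of the snoRNA class (chr1:89681131-89681395, plus strand), stood apart from the other 7. It was at 30.4 and 11.02 FPKM in the NC libraries and was listed at 0 in the *Nr2c2* KD libraries, but also in all 6 libraries of the other KD groups. In the 6 NC pools at 8C it was listed at 0 in 4, that is in all but these 2, and among 16 single control embryos at 8C in 13. Against *Rarg* KD and *Nr1h3* KD it did not differ (log2 fold change 0.00).

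**Figure D2:**
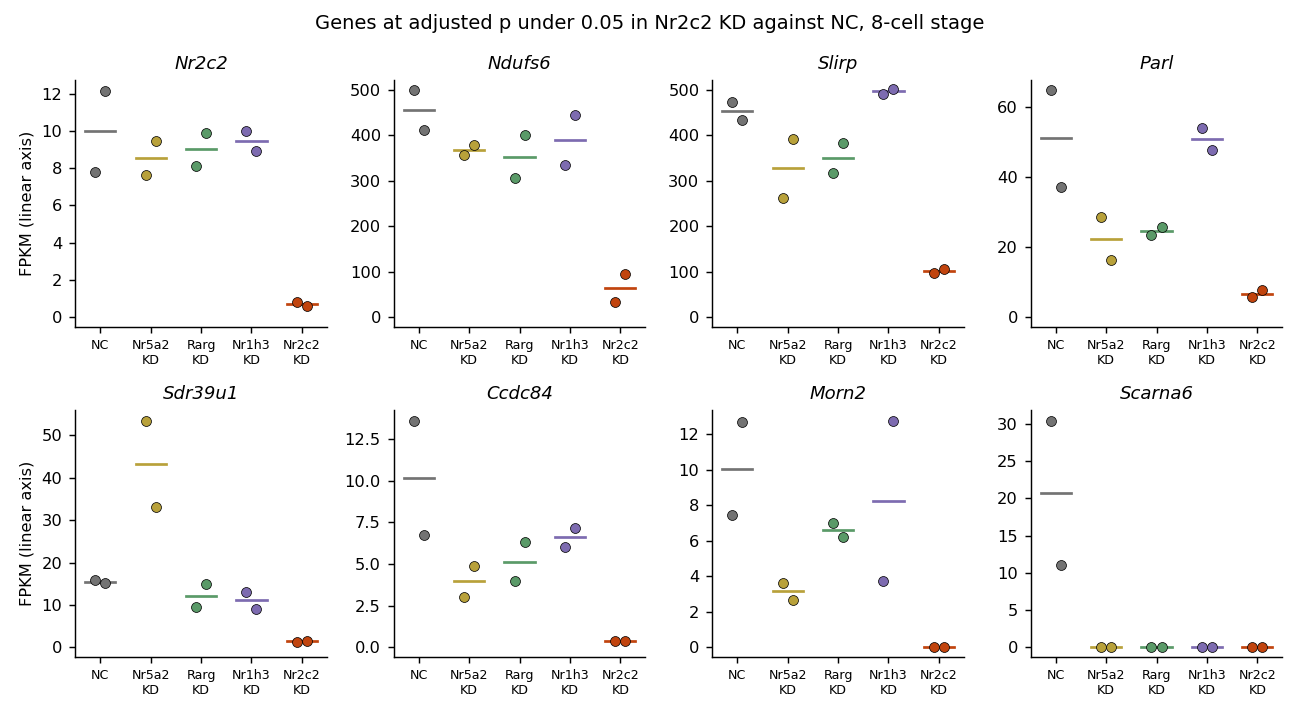
Each panel shows 1 of the 8 genes called in *Nr2c2* KD against NC, with FPKM on a linear vertical axis, 1 point a library, and a bar at the mean of the 2 libraries of each group of the single KD experiment. Except for *Scarna6*, at 0 in every KD library, the *Nr2c2* KD libraries lie under all others, as with *Ndufs6* at 34.1 and 93.6 FPKM against 306 or more elsewhere.

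To ask which differences belonged to the *Nr2c2* siRNA and not to any injected siRNA against a receptor, *Nr2c2* KD was also compared with the mean of *Rarg* KD and *Nr1h3* KD, so that no NC library enters the difference itself, though NC libraries enter the estimate of the spread and the filter on low values. In this comparison 6 of 9169 genes passed an adjusted p of 0.05 (0.0654%), all lower: *Nr2c2* (−2.59), *Ndufs6* (−2.68), *Morn2* (−2.96), *Sdr39u1* (−2.39), *Mfap3* (−2.38) and *Slirp* (−2.02; log2 fold changes, limma with Benjamini-Hochberg adjustment). *Parl* and *Ccdc84* narrowly missed, with adjusted p of 0.0552 and 0.0661. *Mfap3*, which encodes a microfibril-associated glycoprotein, was at 0.401 and 0.219 FPKM in *Nr2c2* KD, at 5.08 and 2.59 in NC and at 5.30 to 7.22 in *Rarg* KD and *Nr1h3* KD. At an unadjusted p under 0.05, 313 genes were lower (3.41%) and 52 higher (0.567%). The count of 6 fell to 0 without NC replicate 1, NC replicate 2, *Nr2c2* KD replicate 1, either *Rarg* KD replicate or *Nr1h3* KD replicate 2, to 1 without *Nr1h3* KD replicate 1, and was 9 without *Nr2c2* KD replicate 2, of which 7 were higher and only *Ndufs6* was among the 6. The 8 genes called against NC were on the lower side against NC under each alternative run, whatever their adjusted p. In each of them both KD libraries were below both NC libraries, and the alternatives use these same libraries, so this adds no support.

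The 3 siRNA experiments at 8C share no library, and in the triple KD and 4KD experiments 8 libraries carried *Nr2c2* siRNA with siRNAs against other receptors. In triple KD, the 6 libraries with *Nr2c2* siRNA were compared with the 2 in which *Nr5a2*, *Rarg* and *Nr1h3* were targeted and *Nr2c2* was not. Each of those 6 lacks 1 of the other siRNAs, so the groups differ in more than *Nr2c2*. *Nr2c2* itself lay between 0.465 and 1.28 FPKM (median 0.719) with the siRNA and at 6.37 and 9.30 without it. *Ndufs6* had 77.9 to 150 FPKM (median 91.1) with the siRNA against 336 and 397 without it, with no overlap. *Slirp* had 93.1 to 234 FPKM (median 171) against 250 and 611, and *Parl* 9.27 to 18.3 against 35.4 and 36.9. *Sdr39u1* (1.81 to 12.6 against 14.9 and 49.7 FPKM) and *Ccdc84* (0.275 to 2.42 against 5.81 and 6.09) did not overlap either, and *Morn2* overlapped in 1 library of 6. Against the NC of the triple KD experiment, however, *Sdr39u1* overlapped, since that NC had 7.10 and 22.4 FPKM. *Morn2* overlapped that NC too, while *Nr2c2*, *Ndufs6*, *Slirp*, *Parl* and *Ccdc84* were below it in all libraries with the siRNA. The group without *Nr2c2* siRNA carried *Nr5a2* siRNA, and *Sdr39u1* was above NC in single *Nr5a2* KD. The part of *Nr5a2* siRNA in this difference was not tested.

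All 7 genes other than *Scarna6* were lower with the siRNA at an unadjusted p under 0.05, a threshold that 2.24% of 10453 genes passed in that direction and 1.21% in the other. Their log2 fold changes ran from −1.30 in *Slirp* to −2.44 in *Sdr39u1*, with *Ndufs6* at −1.86 (p = 0.000369) and *Nr2c2* at −2.31 (p = 0.000533, unadjusted, limma). None passed after adjustment: the lowest adjusted p of the 7 was 0.674. Without replicate 2 of the triple KD group that lacks *Nr2c2* siRNA, 3 of the 7 passed the unadjusted threshold. In 4KD against its own NC, 5 of the 7 were lower at an unadjusted p under 0.05, where 4.72% of 9605 genes were. These were *Nr2c2* (−1.60), *Ndufs6* (−1.89), *Parl* (−1.83), *Ccdc84* (−1.63) and *Slirp* (−1.24), while *Morn2* was at −1.40 (p = 0.0902) and *Sdr39u1* at −1.23 (p = 0.0922). For *Ndufs6* the FPKM were 501 and 283 in that NC and 119 and 85.4 in 4KD. By its label that NC received a higher siRNA concentration than 4KD, and the part of the dose in these differences was not tested. Leaving out 1 library left 2 of the 7 (without NC replicate 1 or 4KD replicate 2) or 3 (without NC replicate 2 or 4KD replicate 1).

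Set side by side over all 24 pooled 8C libraries of the 3 experiments, which were each scaled on their own, *Ndufs6* separated the 10 libraries with *Nr2c2* siRNA (at most 150 FPKM) from the 14 without it (at least 238 FPKM) without overlap, and so did *Nr2c2* (at most 1.56 against at least 2.98 FPKM). *Slirp* and *Ccdc84* were below all 14 in 9 of the 10 libraries with the siRNA, *Parl* and *Morn2* in 8 and *Sdr39u1* in 7. *Mfap3* was below all 14 in 9 of the 10, and reached 7.38 FPKM in the other. These genes were called on the single KD libraries, which are among the 24, so part of the separation was fixed by their choice. *Nr2c2* is the target of the siRNA itself. How many of all genes separate the libraries as well was not counted.

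**Figure D3:**
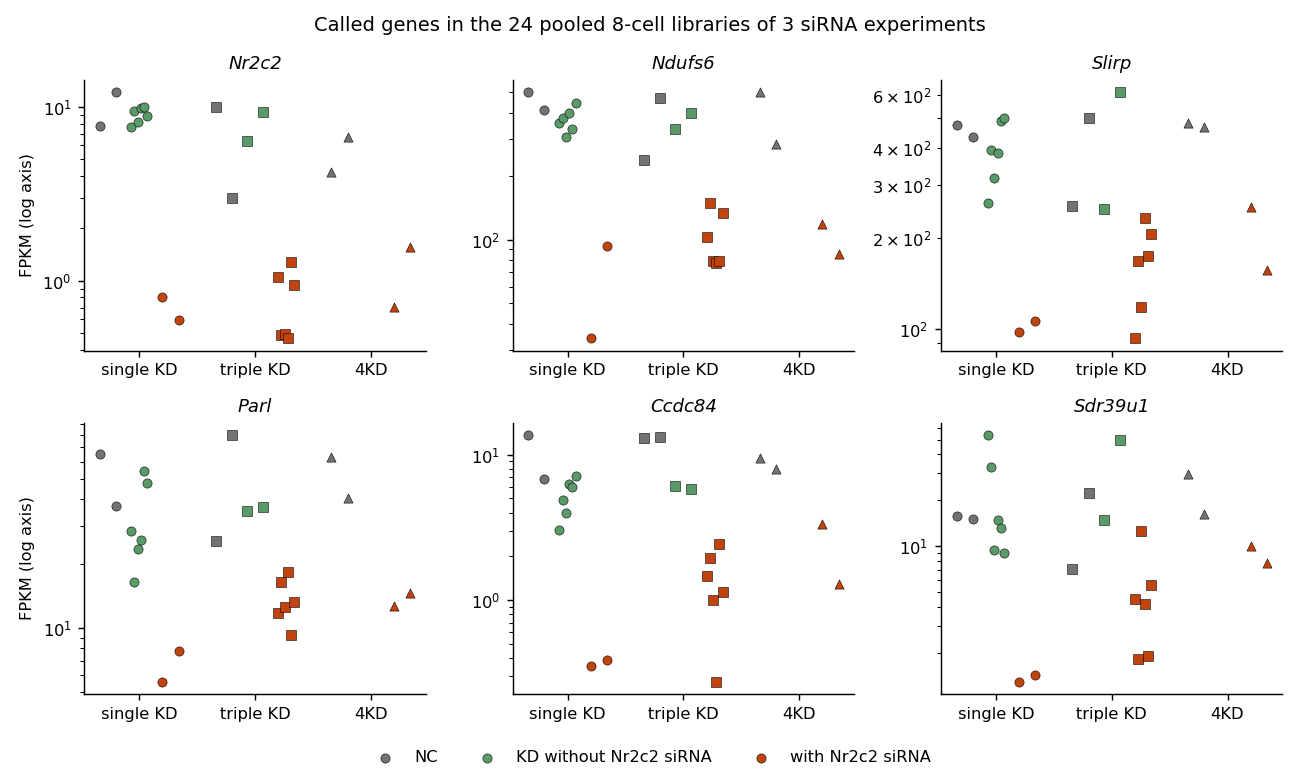
FPKM (log axis) of *Nr2c2* and 5 of the called genes are shown in the 24 pooled 8C libraries of the single KD, triple KD and 4KD experiments, 1 point a library, in grey for NC, green for KD without *Nr2c2* siRNA and red with it. For *Ndufs6* the 10 red points lie at or under 150 FPKM and the 14 others at or above 238 FPKM. The genes were called on the single KD libraries, which are among the 24.

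The lower genes as a whole were then followed into these independent libraries. Of the 352 genes lower in *Nr2c2* KD, 338 were tested in triple KD. There 29 were lower with *Nr2c2* siRNA (8.58%, beside 1.46% of all genes tested in both). Another 6 were higher (1.775%, beside 1.293% of all). The median log2 fold change of the 338 was −0.055, beside 0.011 of all, so the set as a whole moved little there. In 4KD, 54 of 329 were lower (16.4%) and 5 higher, beside 4.94% of all lower. The median of the 329 was −0.48, beside −0.02 of all. Those embryos also carried siRNAs against the other receptors, whose part was not tested. Of the 67 higher genes, 64 were tested in triple KD, where 3 were higher (4.69%, beside 1.29% of all genes tested in both) and 1 lower. In 4KD, 11 of 58 were higher (19.0%, beside 2.78% of all) and 3 lower. The 29 genes lower in both the single and the triple comparison were on the lower side in 4KD in all but 1 case (*Haus8*, 0.10), and 12 of them passed an unadjusted p of 0.05 there. Chosen for this overlap, the 29 are a description.

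The next genes were picked from the 29 after their values were seen, and no list of mitochondrial proteins was counted over them. *Romo1*, a regulator of reactive oxygen species in the inner membrane, was at 213 and 173 FPKM in NC and at 99.0 and 46.9 in KD (log2 fold change −1.48, and −1.55 in triple KD). *Sdhd*, the membrane anchor of succinate dehydrogenase, had 21.4 and 23.9 against 6.42 and 4.03 FPKM (−1.95 and −1.78). *Etfdh*, which passes electrons from fatty acid oxidation to ubiquinone, had 10.9 and 8.57 against 3.89 and 2.00 (−1.48 and −1.79). In each of the 3 genes both KD libraries were below both NC libraries. *Nfs1*, the cysteine desulfurase of iron-sulfur cluster assembly, had 26.8 and 19.1 against 10.5 and 5.28 FPKM. *Chchd1*, a protein of the mitochondrial ribosome, had 157 and 123 against 54.9 and 43.7. *Mtx1*, of the outer membrane import machinery, had 66.2 and 65.3 against 13.1 and 25.7. *Mdh1*, the malate dehydrogenase of the cytosol, was among the 29 too, at 17.1 and 6.55 FPKM in NC and 5.10 and 2.00 in KD. None of these genes passed after adjustment in the single KD comparison (lowest adjusted p 0.439, limma with Benjamini-Hochberg adjustment).

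The promoters of the affected genes were searched for the hexamers of this receptor family and for other short words. Promoters were taken from RefSeq (GRCm38.p6), 250 bases before to 50 after each start, and 7437 of the 9169 genes tested could be matched (81.1%), among them 282 of 352 lower genes and 58 of 67 higher genes. *Ndufs6* and *Ccdc84*, with falls of −2.98 and −2.96 among the largest of the comparison, each hold 2 such hexamers in a row with 1 base between them, a direct repeat just after the start. In the next 5 lines, shown because this repeat is rare, capitals mark the repeat, and 8 bases are given on each side:
Ndufs6: gacgcgtgGGGTCAAGGGTCAccggcaag
Ccdc84: gcccggaaGGGTCAGGGGTCAgtgggtgg
Wfdc15a: ggaagctgAGGTCACAGGTCAggaaaacg
Ranbp1: cgccgctgGGGTCAGGGGTCAgggttcgg
Tmem248: cgcgggcgGGGTCAGAGGTCAcggcggcg

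The repeat of *Ndufs6* starts 16 bases after the start (the window is chr13:73328447-73328475, minus strand, GRCm38.p6) and that of *Ccdc84* 19 bases after it (chr9:44418031-44418059, minus strand). The windows of *Wfdc15a* (chr2:164200120-164200148, plus strand), *Ranbp1* (chr16:18248698-18248726, minus strand) and *Tmem248* (chr5:130222298-130222326, plus strand) lie before the start. These 5 are all the lower genes with the repeat, defined as AGGTCA or GGGTCA followed after 1 base of any kind by AGGTCA or GGGTCA, on either strand. It stands in 0.16% of the promoters of 27025 genes, in 20 of the 7437 tested (0.27%), in 5 of 282 lower (1.77%) and in 1 of 58 higher genes (1.72%), so that its share was alike in both directions. That 1 was *Pam16*, a subunit of the mitochondrial import motor, with 0 and 1.01 FPKM in NC against 4.63 and 6.52 in KD. The single hexamer AGGTCA was no more frequent among lower genes (15.96%) than among those tested (14.6%), and GGGTCA was in 25.2% against 16.7%. *Wfdc15a*, of the whey acidic protein family of protease inhibitors, was at 113 and 147 FPKM in NC and 18.4 and 30.3 in KD. *Ranbp1*, a cofactor of the RAN GTPase in nuclear transport, went from 442 and 350 to 87.8 and 159 FPKM, and *Tmem248*, which encodes a membrane protein, from 21.5 and 19.2 to 7.81 and 8.98. All 5 were lower in both KD libraries than in both NC libraries, which the choice of lower genes favours.

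Words of 10 letters were then counted on both strands in the promoters of the genes lower in both the single and the triple KD comparison. Among words in 4 or more of these 26 promoters, TTCCGGGTCA had the highest share there relative to all promoters tested, with 7 of 26. It ends in GGGTCA and begins with TTCCGG, the reverse complement of the core CCGGAA bound by ETS factors. The word was thus chosen on these data, and its shares in the single and triple comparisons carry no test. It was present in 0.30% of all 27025 promoters, in 55 of the 7437 genes tested (0.74%), in 19 of the 282 lower (6.74%) and in 0 of the 58 higher. The next lines show 6 of the 19, picked after their values were seen, with the word in capitals and 10 bases on each side, read on the strand that holds it:
Manbal: agcacatcgcTTCCGGGTCAcgagggatca
Mfap3: cgaggagtacTTCCGGGTCAagcatcctct
Mtx1: gagaaggtgcTTCCGGGTCAgagagcgtac
Nedd8: acacttctgcTTCCGGGTCActctctggac
Etfdh: ccagtaaggtTTCCGGGTCAcatacaagcc
Ndufb7: cttcagtgtcTTCCGGGTCAtctaggctgc

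These windows are at chr2:157367580-157367609 (*Manbal*, plus strand), chr11:57518656-57518685 (*Mfap3*, plus), chr3:89213897-89213926 (*Mtx1*, minus), chr14:55671909-55671938 (*Nedd8*, plus), chr3:79628773-79628802 (*Etfdh*, plus) and chr8:83566724-83566753 (*Ndufb7*, minus), all in GRCm38.p6. The word lay close to the start: within 60 bases of it in 17 of the 19 lower genes and in 44 of the 55 genes tested. *Manbal*, which encodes a small membrane protein, was at 34.9 and 25.8 FPKM in NC and at 9.31 and 5.34 in KD. Its log2 fold change was −1.94 there and −2.04 in triple KD (unadjusted p = 0.00137 and 0.000241, limma). In triple KD, however, the group without *Nr2c2* siRNA (47.4 and 42.6 FPKM) was above the NC of that experiment (15.2 and 18.3). The libraries with the siRNA, at 3.12 to 18.0 FPKM, overlapped that NC. *Nedd8*, the ubiquitin-like protein that is attached to cullins, was at 436 and 370 FPKM in NC and at 126 and 151 in KD. *Ndufb7*, another accessory subunit of complex I, was at 316 and 308 against 154 and 185. In all 6 genes the KD libraries were below both NC libraries, which their choice favours. *Cutc* and *Cox15*, which lie head to head and share 1 match, were both among the 19, with falls of −1.27 and −1.26. *Pmpcb*, a subunit of the mitochondrial processing peptidase, and *Slc25a17*, a carrier of the peroxisomal membrane, were also among them, with falls of −1.17 and −1.42.

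The shorter word TTCCGGGT, which the 10 letters contain, stood in 2.06% of all promoters, in 4.75% of those tested, in 41 of 282 lower genes (14.5%) and in 0 of 58 higher genes. As the start of a word chosen on these data, it was favoured among lower genes by that choice, and its shares carry no test. It was found in 2 more of the called genes, shown here with the word in capitals and 11 bases on each side:
Sdr39u1: actataactccTTCCGGGTcgggggagggt
Morn2: tgcacttttgcTTCCGGGTgagaggtcgcc

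The window of *Sdr39u1* is at chr14:55900299-55900328 (minus strand) and that of *Morn2* at chr17:80290188-80290217 (plus strand, GRCm38.p6). Both genes were lower in the single and the triple comparison, and so were among those on which the longer word was chosen. *Slirp* and *Parl* hold neither the word nor the direct repeat in these 300 bases, which says only that the letters are not in this window. A match is a description of the sequence and shows no binding.

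Over all 55 genes with the 10 letters, changed or not, the median log2 fold change in *Nr2c2* KD was −0.80, beside −0.27 in the 7382 genes without them, and 47 of the 55 were below the median of the latter. In each KD library against the mean of NC the medians were −0.71 against −0.24 (replicate 1) and −0.76 against −0.30 (replicate 2). The difference of −0.54 between the medians ranged from −0.43 to −0.55 under the alternatives. Against *Rarg* KD and *Nr1h3* KD the medians were −0.62 and −0.19, and 22 of 253 lower genes held the letters (8.70%). That comparison uses the same *Nr2c2* KD libraries on which the word was chosen, and the genes that chose it are among the 55, so it adds no support. In triple KD, which took part in the choice of the word, they were −0.31 with and 0.01 without, and 8 of 193 lower genes held it (4.15%). The 4KD libraries took no part in that choice: the medians were −0.23 with and 0.00 without the letters, and 5 of 358 lower genes held them (1.40%) beside 0.72% of those tested. For the other single KD groups, compared with the same NC libraries, the medians with and without the letters were −0.19 and −0.12 in *Rarg* KD, 0.01 and −0.01 in *Nr1h3* KD, and −0.21 and −0.28 in *Nr5a2* KD. Among the genes lower in these groups the letters stood in 1 of 172, 0 of 116 and 8 of 1155. Genes that share a promoter or a family are not independent points, and these values have no test.

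**Figure D4:**
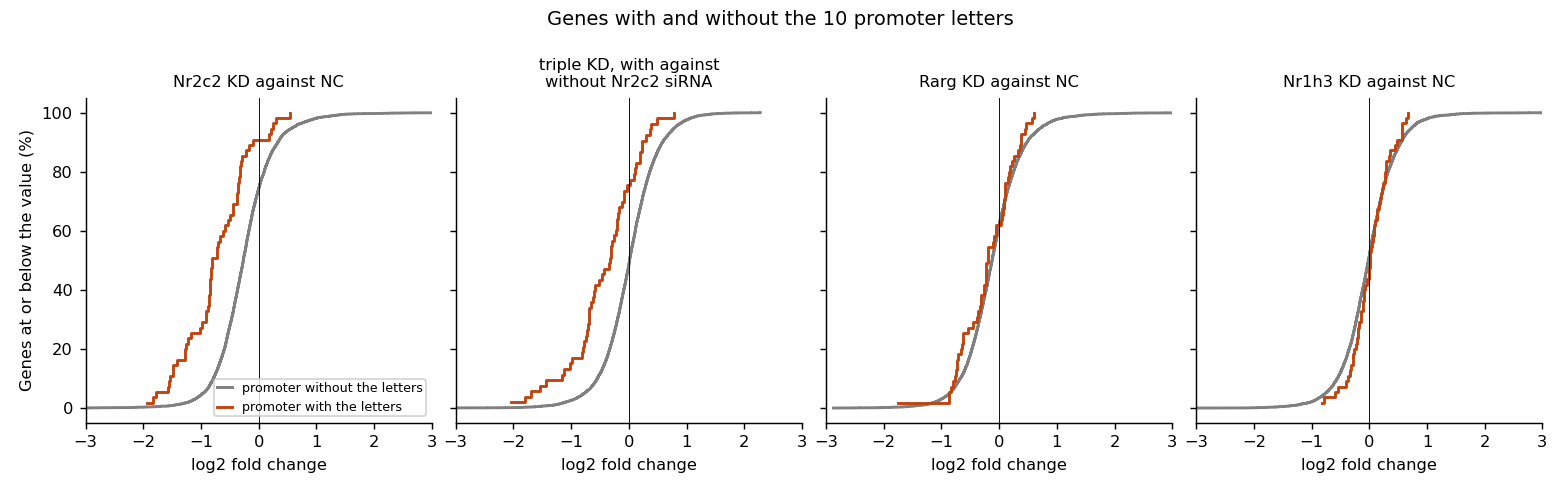
The cumulative share of genes (vertical axis, %) is drawn against the log2 fold change (horizontal axis, cut at −3 and 3) for genes with and without the 10 letters within 250 bases before to 50 after a start, in 4 comparisons. The curve of the genes with the letters lies to the left in *Nr2c2* KD (medians −0.80 and −0.27) and in triple KD (−0.31 and 0.01), and close to the other curve in *Rarg* KD and *Nr1h3* KD. The letters were chosen on the *Nr2c2* KD and triple KD comparisons, which favours the shift in their panels, and the contrast carries no test. In 4KD, which is not drawn and took no part in the choice, the medians were −0.23 and 0.00.

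Among the nuclear receptors at large, 10 of 39 others were expressed enough to be tested, and none was at an unadjusted p under 0.05 (median −0.21). *Esrrb*, a receptor of the pluripotency network, was at 7.51 and 7.16 FPKM in NC and at 6.52 and 8.73 in KD, values that overlapped. *Nr1h2*, the paralog of *Nr1h3*, was at 49.7 and 51.4 FPKM in NC and at 27.2 and 29.8 in KD (−0.81, unadjusted p = 0.0632, limma). Of 12 partners and cofactors of NR2C2, 8 were tested and 0 passed at that level (median −0.55). The median of all genes tested was −0.27. With median-ratio size factors that of the partners was −0.245, beside −0.007 of all genes. *Nr2c2ap*, which encodes a protein that binds NR2C2, had 47.1 and 50.0 FPKM in NC and 32.6 and 34.4 in KD. The demethylase gene *Kdm1a* (−0.61), the deacetylase genes *Hdac1* (−0.69), *Hdac2* (−0.58) and *Hdac3* (−1.37), the methyltransferase gene *Dnmt1* (0.13) and the corepressor genes *Rcor1* (0.22) and *Ncor1* (−0.00) completed the list, and *Dnmt1*, *Rcor1* and *Ncor1* took the other sign under 1 or more alternatives. *Jazf1*, an inhibitor of NR2C2, was under 1 FPKM in all 4 libraries.

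Genes that textbooks give as NR2C2 targets were few at this stage: 5 of 9, among them *Cd36*, *Pck1* and the embryonic globins, were listed at 0 in all 4 libraries. The pluripotency factor *Pou5f1* was at 138 and 167 FPKM in NC and at 93.2 and 311 in KD, on both sides of the controls. *Apoe*, of lipid transport, was at 13.5 and 15.5 against 8.54 and 28.2, *Scd1*, a fatty acid desaturase, at 11.5 and 14.6 against 10.5 and 8.63, and *Gata1*, a factor of the red cell lineage, at 19.6 and 36.3 against 36.5 and 23.5. None of the 4 passed an unadjusted p of 0.05.

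Oxidative phosphorylation makes most of the ATP of a cell through the complexes of the inner mitochondrial membrane. Of 75 of its subunits tested, 8 were lower (10.7%, beside 3.84% of all genes) and 1 higher, with a median of −0.25 that was close to the −0.27 of all genes. The 8 were *Ndufs6*, *Ndufs4*, *Ndufs5*, *Ndufa2*, *Ndufa7*, *Ndufa8* and *Ndufb7*, all of complex I, and *Atp5g2*, of the ATP synthase. The higher gene was *Cox7a1*, the muscle form of a subunit of complex IV. Abundant subunits such as *Cox8a* (2453 and 1491 FPKM in NC, 2204 and 2686 in KD) overlapped between the groups. In triple KD, 2 of 76 subunits were lower with *Nr2c2* siRNA and 0 higher, a share close to the 2.24% of all genes. Only *Ndufs6* of the 75 passed after adjustment.

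Ribosomal protein genes had 0 lower and 1 higher of 81 (median 0.12), and proteasome subunits 1 lower of 35 (*Psmd14*, 258 and 232 FPKM in NC and 156 and 141 in KD). None of 21 genes of lipid and cholesterol synthesis passed an unadjusted p of 0.05 (median −0.41), *Fdft1* of squalene synthesis among them at 136 and 165 FPKM against 152 and 116. Beside these lists, 3.84% of all genes tested were lower and 0.731% higher, with a median of −0.27.

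Among lineage genes, 4 of 15 of the trophectoderm were lower (26.7%, beside 3.84% of all genes) and 0 higher, with a median of −0.53 that was −0.23 with median-ratio size factors, where that of all genes was −0.007. They were *Gata3*, *Klf5*, *Hand1* and *Cldn4*. The tight junction gene *Cldn4* was at 95.9 and 138 FPKM in NC and at 15.6 and 65.2 in KD (−1.81, unadjusted p = 0.0129, limma), and *Klf5*, a factor of both early lineages, at 327 and 247 against 130 and 164 (−0.96, p = 0.0196). *Nr5a2* KD had *Cldn4* at 34.7 and 16.2 FPKM and *Klf5* at 46.7 and 26.3. Against *Rarg* KD and *Nr1h3* KD, *Klf5* differed by −0.27 (p = 0.394) and *Cldn4* by −1.06 (p = 0.0721), and in triple KD by 0.15 and 0.51. Of 17 pluripotency genes 1 was lower, *Tbx3* (37.9 and 32.6 FPKM in NC, 12.6 and 21.1 in KD), and of 6 primitive endoderm genes 0 passed, with *Gata6* at 55.6 and 67.8 against 26.6 and 45.1. In bulk samples fewer cells of a type and less RNA per cell cannot be told apart.

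The study's lists of stage genes were defined on reference data of embryos dissected at each stage. Of 492 late 2-cell genes tested, 23 were lower (4.67%) and 5 higher (median −0.23), of 58 genes of the 4-cell to 8-cell transition 4 were lower (6.90%) and 2 higher (median −0.51), and of 33 inner cell mass genes 2 were lower (6.06%) and 0 higher (median −0.39). Among all genes tested 3.84% were lower and 0.731% higher, with a median of −0.27. In the list of the 4-cell to 8-cell transition, the lower genes included the Y-linked *Ddx3y* and the higher genes *Xist*. The sex of the embryos in each pool is not known, and its part in these counts was not tested.

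Like *Scarna6*, some genes set the NC libraries apart from all 8 KD libraries of the experiment, namely *Terc*, *Rpph1*, *Ifitm2* and *Bst2*. *Terc*, the RNA template of telomerase, was at 51.9 and 19.6 FPKM in NC, at 5.01 and 0 in *Nr2c2* KD and at 3.23 to 13.8 in the other KD groups. *Rpph1*, the RNA of RNase P, was at 644 and 282 in NC, at 58.9 and 36.1 in *Nr2c2* KD and at 51.6 to 208 elsewhere. *Snhg9*, a snoRNA host transcript with the largest rise (log2 fold change 6.63, unadjusted p = 0.00145, adjusted p = 0.439, limma with Benjamini-Hochberg adjustment), was listed at 0 in both NC libraries, and was at 93.0 and 104 FPKM in *Nr2c2* KD. It ran from 0 to 495 in the other KD groups, with the 0 in *Nr5a2* KD replicate 2, as in NC. *Ifitm2*, an interferon-induced membrane protein gene, was at 47.2 and 110 FPKM in NC, at 206 and 168 in *Nr2c2* KD and at 172 to 443 elsewhere, and *Bst2*, another interferon-response gene, was lower in all KD groups (13.6 and 16.8 in NC against at most 10.2). Against *Rarg* KD and *Nr1h3* KD neither *Ifitm2* (−0.07) nor *Bst2* (−0.18) passed. *Xist* was at 1.86 and 0 FPKM in NC and at 9.10 and 7.11 in *Nr2c2* KD, and the Y-linked *Eif2s3y* at 15.7 and 38.6 against 0 and 11.1. In the other KD groups *Xist* ran from 0.475 to 18.2 FPKM and *Eif2s3y* from 0 to 33.5, and both overlapped NC. The share of female embryos in each small pool is not known, and its part in these values was not tested.

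The 2 *Nr2c2* KD libraries did not agree on a set of other genes. *Tcstv3*, a gene of the burst of transcription at the 2-cell stage, was at 170 FPKM in KD replicate 1 and 0.574 in replicate 2, with 0.647 and 0 in NC. *Tcstv1* was at 112 and 0.586 against 2.64 and 0.926, and *Gm5662* at 84.3 and 0.143 against 0.982 and 0.0860. The level of *Tcstv3* in KD replicate 1 was within that of the 2 NC pools at the 2-cell stage (91.7 and 354 FPKM). Summed over the list of 2-cell burst genes, the FPKM were 28.3 and 28.9 in NC and 523 and 16.4 in KD, so that only replicate 1 was high. *Defa4*, a defensin of the intestine, was at 816 FPKM in KD replicate 1 and listed at 0 in replicate 2 and in NC, and was seen in 1 of 6 NC pools at 8C (348 FPKM) and in 1 of 16 single control embryos at 8C (346 FPKM). *Gm8764* (78.3 and 0.322), *Gm2016* (75.0 and 0.301) and *B020031M17Rik* (81.0 and 0.530 FPKM) split likewise, and *Gm8764* reached 76.7 in 1 *Rarg* KD library as well. Some of these genes were higher with *Nr2c2* siRNA in the other experiments at an unadjusted p under 0.05. In triple KD these were *Tcstv1* (1.84, p = 0.0263), *Gm2016* (1.84, p = 0.0238), *Gm5662* (1.91, p = 0.0477) and *B020031M17Rik* (1.94, p = 0.0242; log2 fold changes, unadjusted p, limma), while *Tcstv3* (0.50, p = 0.557) and *Gm8764* (1.64, p = 0.129) did not pass. In 4KD *Tcstv1* (1.84, p = 0.0219) and *Gm5662* (1.96, p = 0.0452) were higher and *Tcstv3* was at −1.13 (p = 0.101, all unadjusted, limma), where 3.39% of all genes were higher. *Tcstv1* was at 1.55 to 36.5 FPKM with the siRNA in triple KD against 0 and 3.05 without it, and at 4.85 and 6.72 in 4KD against 0 and 2.51 in its NC. *Amd1*, of polyamine synthesis, and its near-identical copy *Amd2* traded places in that library: *Amd1* was at 57.0 and 41.3 FPKM in NC, 0.113 in KD replicate 1 and 32.6 in replicate 2, while *Amd2* was at 54.3 in replicate 1 and at most 0.535 in the other 3. Reads of the copies can be split between them, so these values are uncertain.

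**Figure D5:**
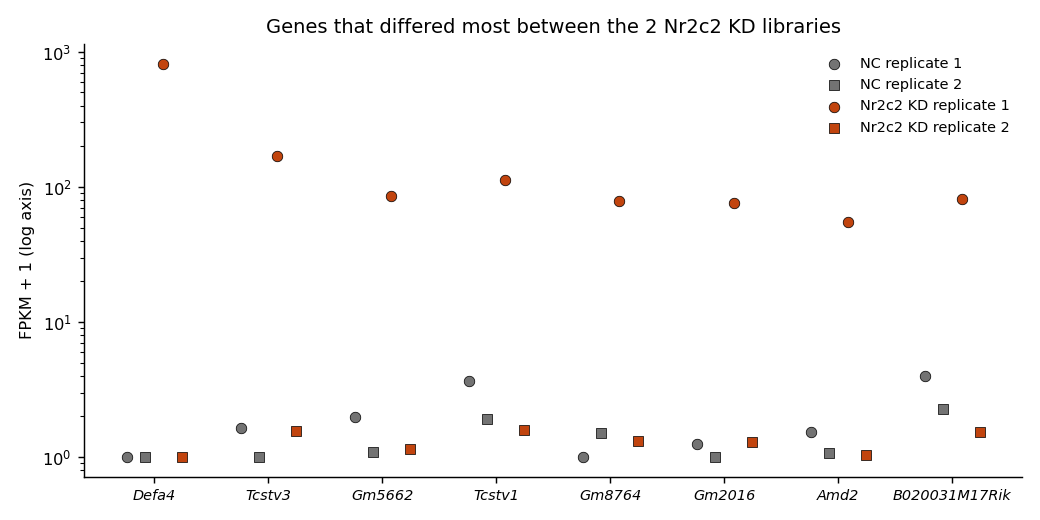
FPKM plus 1 (log axis) of the 8 genes that differed most between the 2 *Nr2c2* KD libraries, with NC replicates within 1 log2 unit of each other, are shown for the 4 libraries, 1 point each. KD replicate 1 stands at 54.3 to 816 FPKM while KD replicate 2 and both NC libraries stay under 3 FPKM.

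Markers of cells that could be carried along were low. None of 14 cumulus and granulosa cell markers was tested and 12 were listed at 0 in all 4 libraries, with a summed level of at most 1.26 FPKM. Of 7 sperm markers only *Tnp1* was tested, at 7.65 and 0 FPKM in NC and 0 in both KD libraries. Oocyte transcripts, 9 of which were tested, summed to 53.4 and 73.2 FPKM in NC and to 91.5 and 56.1 in KD, with *Oog1* the 1 higher gene (0 and 0.499 FPKM against 2.72 and 1.48). The p53 response had 1 higher gene of 16, *Eda2r* (4.24 and 9.81 FPKM in NC, 24.5 and 13.3 in KD), and a median of 0.39. Of all genes tested 3.84% were lower and 0.731% higher, with a median of −0.27. Genes of the small RNA machinery, through which siRNA acts, had 0 of 11 in either direction, with *Ago2* at 31.5 and 26.7 FPKM against 13.8 and 23.2.

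Depth of the 4 libraries is unknown, since FPKM hold no read counts. Their FPKM summed to 443773 to 498600, with 8328 to 8740 genes at 1 FPKM or more. Correlation over genes of log2(FPKM + 1) was 0.951 between the NC libraries and 0.929 between the *Nr2c2* KD libraries.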

How the data were processed

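By their methods, the authors aligned trimmed Smart-seq2 read pairs to mm9 using TopHat, and Cufflinks with UCSC refFlat genes gave the deposited FPKM. The submitters' processing notes name CASAVA 1.8, Bowtie2 2.2.2, MACS 1.4.2 and bedtools 2.29.0 for the series. FPKM are scaled within each library, so levels set across experiments come from libraries scaled separately. The files hold no counts, the depth is unknown, and no interval or limit of detection can be given. From the steps between low values the relative depth of the 4 libraries lay between 0.874 and 1.253, as estimated here.

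Samples were grouped by title. The 10 libraries of the single KD experiment entered 1 fit with limma 3.58.1 (R 4.3.3) on log2(FPKM + 1), with the trend option of eBayes and p-values adjusted by Benjamini-Hochberg over 9169 genes with a mean of at least 1 FPKM in *Nr2c2* KD or NC. A fold change on this scale understates the change of low genes. The authors' own test needs counts and was not repeated. The triple KD and 4KD experiments were fitted in the same way on their own libraries. Lists were described by counts and medians, without a test. The fit was tested on simulated data with known changes in well expressed genes. Of genes changed by 1, 2 and 3 log2 units, 4.5%, 49.3% and 97% reached an adjusted p under 0.05, and 7 unchanged genes did so too. A gene that did not pass may thus still differ. Promoters (RefSeq, GRCm38.p6) were matched by symbol or a unique synonym and searched on both strands with Python 3.11.15. Gene positions are those of GENCODE vM1 on mm9.

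The genes described, the lists and the comparisons were chosen with earlier results of these data known. Named were all genes at an adjusted p under 0.05, up to 12 in each direction with the largest change at an unadjusted p under 0.05 and no overlap between KD and NC, up to 8 that differed most between the KD replicates, and up to 4 of each list with all measured receptors, partners and textbook targets. *Manbal*, *Romo1*, *Etfdh*, *Nfs1*, *Mdh1*, *Chchd1*, *Mtx1*, *Sdhd*, *Mfap3*, *Crygn*, *Ube2dnl2*, *Gm21312*, *Gm20765*, *Gm4541*, *Ranbp1*, *Nedd8*, *Wfdc15a*, *Cox15*, *Cutc*, *Pmpcb*, *Slc25a17*, *Tmem248*, *Pam16*, *Haus8* and the remaining members of lists named as lower or higher were chosen after their values were seen. The sequences of the siRNAs are not given here.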

Additional observations from a re-analysis of the deposited data

Results flagged for a closer look

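For 6 genes the effect of *Nr2c2* siRNA differed from the mean effect of *Rarg* and *Nr1h3* siRNA by a test of the difference itself (limma, adjusted p under 0.05 with Benjamini-Hochberg adjustment over 9169 genes). The differences on the log2 scale were −2.59 in *Nr2c2*, −2.68 in *Ndufs6*, −2.96 in *Morn2*, −2.39 in *Sdr39u1*, −2.38 in *Mfap3* and −2.02 in *Slirp*, each lower with *Nr2c2* siRNA. Both *Nr2c2* KD libraries were below all 4 libraries of the other 2 groups in each of the 6 genes. The genes were called on these same libraries, so their choice favours this separation and it adds no support.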

How the results depend on the processing

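The count of 8 genes at an adjusted p under 0.05 was 1 without a filter on low values (*Crygn*, higher, none of the 8), 1 with only the 4 libraries in the fit (*Snhg9*, higher, none of the 8), 2 with median-ratio size factors (*Scarna6* and *Sdr39u1*), 3 with quantile normalization (these 2 and *Parl*), 5 without a trend (all among the 8), and 0 to 9 when 1 library was left out, with at most 2 of the 8 among them, where the lone library of a group is assumed to vary like the others. It was 8 with a replicate block, the same 8 genes. The replicate numbers share only a number: deviations of same-numbered libraries correlated at −0.042 to 0.147 over 10 pairs of groups. The count under the stricter limits, 1, was 0 without a filter, with a mean of at least 5 FPKM, with the filter over any of the 5 groups, with median-ratio size factors, with quantile normalization and with the replicate block, and 0 to 6 when 1 library was left out. Of unadjusted p under 0.05, 419 in all, 658 were found without a filter, 274 with a mean of at least 5 FPKM and 699 with only the 4 libraries. The count of 6 in *Nr2c2* KD against *Rarg* KD and *Nr1h3* KD was 10 with a pseudocount of 0.1 (all 6 among them), 2 without a filter (*Crygn* and *Ube2dnl2*, both higher, none of the 6), 1 with median-ratio size factors or quantile normalization (*Sdr39u1*) and with no trend (*Nr2c2*), 3 of the 6 with the replicate block, 5 of the 6 when *Nr5a2* KD was added to the other groups, and 0 to 9 when 1 library was left out, with at most 1 of the 6 among them. A fit of only the 4 libraries was not possible for that comparison. The fall of *Nr2c2* was −2.67 without a filter (adjusted p = 0.133, limma with Benjamini-Hochberg adjustment) and with only the 4 libraries (0.168), −2.45 with median-ratio size factors (0.117), −2.52 with quantile normalization (0.0808), and −2.38 to −2.96 when 1 library was left out (0.206 to 0.432). The 7 genes lower in triple KD were 3 to 7 and the 5 lower in 4KD 2 to 3 when 1 library was left out, and 7 and 5 with the replicate block. These leave-one-out and block alternatives for triple KD and 4KD, that for the *Rarg* KD and *Nr1h3* KD libraries, and all alternatives for the promoter letters were chosen after seeing the data.

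Signs that turned were all of genes that did not pass. When 1 library was left out, the log2 fold change ranged from −0.74 (without *Nr2c2* KD replicate 1) to 5.42 in *Tcstv1* and from −0.97 (likewise) to 4.77 in *B020031M17Rik*, from −0.65 to 0.073 (without KD replicate 1) in *Rarb*, from −0.025 (without NC replicate 1) to 0.29 in *Dnmt1*, from −0.69 (likewise) to 1.12 in *Rcor1*, from −0.27 to 0.26 (without KD replicate 2) in *Ncor1*, from −0.70 (likewise) to 1.03 in *Pou5f1* and to 0.92 in *Apoe*, and from −0.30 (without NC replicate 1) to 0.56 in *Gata1*. *Ncor1* was at 0.25 with median-ratio size factors and 0.23 with quantile normalization. The causes were not tested. Of the other values of named genes, 919 kept their direction and side of the threshold, 52 no longer passed and 5 now passed. Of the list medians, 196 moved by less than the spread between replicates and 88 by more, and *Tnp1*, the sole sperm marker tested, fell out of 2 alternatives.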
